A study of Mus musculus with 20 samples.

Results

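Interferon-stimulated genes are the transcripts that a cell makes more of after an interferon has bound its receptor. The 43 members described here were chosen by symbol as genes of the type I and type II interferon response, with the Ifitm family and the genes of antigen presentation left out, by a rule that sets no threshold on a measured value. All 43 were found among the 49568 rows of the count tables, and all 43 passed the filter on low counts in every comparison. RNA was sequenced from 4 groups of 5 libraries each, namely AhR-KO MPP, WT MPP, AhR-KO LT-HSC and WT LT-HSC. LT-HSC are long-term haematopoietic stem cells, the marrow cells that renew themselves and give rise to all blood lineages, and MPP are multipotent progenitors, their progeny with little self-renewal. Both were sorted by flow cytometry from the bone marrow of mice kept without treatment. AhR-KO mice are labelled as lacking AHR, the aryl hydrocarbon receptor, a transcription factor that ligands switch on, and WT mice are C57BL/6. The animals of all groups were 8 to 12 weeks old. The sources used here do not give the knockout allele, the sort markers or whether a library is 1 mouse or a pool. Since nothing states that the libraries of a group came from separate animals, p-values measure the spread between these samples, which may be technical.

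Type I interferons signal through the receptor chains IFNAR1 and IFNAR2 and the kinases JAK1 and TYK2 to a complex of STAT proteins and IRF9, which binds the interferon-stimulated response element in front of many of these genes. Interferon gamma signals through IFNGR1 and IFNGR2 and the kinases JAK1 and JAK2 to STAT proteins that bind the gamma-activated site. Stem cells are known to keep part of this gene set at a steady level without infection, and both kinds of interferon are known to act on them.

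The library totals ranged from 13712668 to 21622653 counts. Ahr transcripts were present in every library, at 9.80 to 19.2 CPM (counts scaled to a common library total) in AhR-KO MPP against 5.80 to 14.2 CPM in WT MPP. In LT-HSC the AhR-KO libraries had 18.5 to 29.7 CPM of Ahr and the WT libraries 20.8 to 36.6 CPM. Total Ahr counts therefore did not separate the genotypes, and the counts per gene do not show whether the transcript is intact. The sum of 8 LT-HSC markers was 483 to 862 CPM in MPP libraries and 1533 to 1954 CPM in LT-HSC libraries. That of 5 MPP markers was 2024 to 3110 CPM in MPP libraries and 464 to 673 CPM in LT-HSC libraries. By these 2 lists the labelled populations carried their markers. Kit and Ly6a, listed as markers of both populations, summed to 711 to 1385 CPM in MPP libraries. In LT-HSC libraries they summed to 1575 to 2014 CPM, except for 687 CPM in WT LT-HSC 1. Libraries AhR-KO LT-HSC 2 and 3 held 943 and 1411 CPM of 8 neutrophil markers, where LT-HSC libraries otherwise had 6.18 to 90.9 CPM. Of 8 monocyte and macrophage markers they held 325 and 342 CPM, where LT-HSC libraries otherwise had 29.9 to 69.9 CPM. Of 6 erythroid markers they held 1494 and 1695 CPM. WT LT-HSC 6 had 986 CPM of these, and the remaining LT-HSC libraries had 90.1 to 295 CPM. AhR-KO LT-HSC 3 also held 3745 CPM of 6 stromal markers. Library WT LT-HSC 1 stood apart from its group, with a mitochondrial share of 0.386% of counts against 0.778% or more in every other library. Its log2 CPM correlated at 0.928 to 0.932 with the other WT LT-HSC libraries, each of which reached 0.990 with another. In the comparisons that use LT-HSC, counts of members called or positive are given with all libraries and without AhR-KO LT-HSC 2 and 3 and WT LT-HSC 1. Values of single genes and of the other lists rest on all libraries unless stated.

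The letters that STAT and IRF proteins are known to bind are shown for 7 members: Gbp2, Gbp7, Igtp, Irgm2 and Rsad2, which were lower in MPP than in LT-HSC in both genotypes, and Isg15 and Ifit1 as textbook targets. Each is the stretch before the RefSeq start (build GRCm38.p6), 150 bases long, or 109 for Gbp2. For Gbp2 the bases nearest that start were left out, since they lie in an annotated first exon. The printed Gbp2 and Ifit1 stretches still run past the GENCODE M21 starts of these genes (chr3:142620602 and chr19:34640871). The marked letters of Gbp2 lie after that start, inside the annotated gene, and those of Ifit1 before it. For Gbp7 and Irgm2 the bases just after that start were not found whole in a GENCODE M21 transcript of the gene. The Irgm2 stretch lies inside the gene as GENCODE M21 places it (chr11:58199618-58222782), so that it may not precede the main start. Capitals mark the core of the interferon-stimulated response element, searched as GAAA, any 2 bases and GAAA, and TTCNNNGAA, the gamma-activated site, on either strand. The stretches are Gbp2 (chr3:142620513-142620621, plus strand), Gbp7 (chr3:142530186-142530335, plus strand), Igtp (chr11:58199406-58199555, plus strand), Irgm2 (chr11:58214827-58214976, plus strand), Rsad2 (chr12:26456453-26456602, minus strand), Isg15 (chr4:156200819-156200968, minus strand) and Ifit1 (chr19:34640739-34640888, plus strand).
Gbp2: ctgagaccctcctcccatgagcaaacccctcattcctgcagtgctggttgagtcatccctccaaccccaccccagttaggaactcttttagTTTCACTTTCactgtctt
Gbp7: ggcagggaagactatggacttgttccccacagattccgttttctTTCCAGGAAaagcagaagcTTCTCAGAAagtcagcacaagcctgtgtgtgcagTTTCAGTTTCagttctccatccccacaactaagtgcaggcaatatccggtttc
Igtp: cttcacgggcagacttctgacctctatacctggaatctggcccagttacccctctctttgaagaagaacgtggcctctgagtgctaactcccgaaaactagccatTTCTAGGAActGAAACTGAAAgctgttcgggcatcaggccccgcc
Irgm2: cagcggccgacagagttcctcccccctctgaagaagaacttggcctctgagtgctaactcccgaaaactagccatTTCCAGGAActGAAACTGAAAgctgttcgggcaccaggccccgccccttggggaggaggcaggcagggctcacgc
Rsad2: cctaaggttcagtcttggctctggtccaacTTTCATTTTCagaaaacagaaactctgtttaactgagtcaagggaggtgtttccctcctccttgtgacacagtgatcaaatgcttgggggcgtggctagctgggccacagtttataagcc
Isg15: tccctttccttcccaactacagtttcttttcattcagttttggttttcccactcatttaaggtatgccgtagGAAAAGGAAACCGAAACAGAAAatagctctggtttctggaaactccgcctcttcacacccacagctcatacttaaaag
Ifit1: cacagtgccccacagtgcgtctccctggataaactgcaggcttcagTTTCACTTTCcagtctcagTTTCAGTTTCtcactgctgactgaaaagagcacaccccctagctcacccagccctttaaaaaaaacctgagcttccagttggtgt

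Isg15 and Ifit1 each carry more than 1 copy of the response element letters, Isg15 in an overlapping run. Igtp and Irgm2 carry both motifs side by side, with a gap of 2 bases between them. Aligned on the gamma-activated site without gaps, these neighbours shared 103 of 120 bases, and 77 of the 80 bases around the site. Over the windows from 250 bases before to 50 after the start, searched on both strands, 33 of the 43 members had an entry, and 18 of those 33 (54.5%) held the response element letters, against 3.99% of the 27025 symbols in the table. The gamma-activated site letters stood in 11 of 33 members (33.3%), against 9.55% of symbols, and the core of the AHR response element, GCGTG, in 14 of 33 members (42.4%), against 35.2% of symbols. Eif2ak2, Oas1a, Bst2, Gbp7, Igtp and Irgm2 held both interferon motifs. Mx1, Rtp4, Parp9, Parp14, Ifi27, Usp18, Oas2, Zbp1, Dhx58 and Mx2 had no entry. Of the 7 members lower in MPP in both genotypes, 6 held the response element letters and 3 the gamma-activated site, against 9 and 8 of the 21 members with an entry that were called lower in neither genotype. A match is only a run of letters and shows no binding.

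On the TPM scale, which divides counts by transcript length and brings libraries to a common total, Ifi47, a GTPase of the IRG family, averaged 179 ± 10.8 TPM in AhR-KO MPP, 155 ± 32.8 in WT MPP, 197 ± 22.7 in AhR-KO LT-HSC and 196 ± 43.4 in WT LT-HSC (SD, n = 5 each). Bst2, the membrane protein tetherin that holds budding virus on the cell, averaged 163 ± 11.2, 125 ± 17.3, 159.9 ± 26.2 and 137 ± 9.78 TPM in the same order of groups. These 2 genes and Ifi27, a mitochondrial protein, were the 3 members with the highest mean TPM in both MPP groups. Ifi27 averaged 201 ± 52.2 TPM in AhR-KO MPP, 151 ± 22.2 in WT MPP, 107 ± 26.3 in AhR-KO LT-HSC and 97.1 ± 27.1 in WT LT-HSC. In both LT-HSC groups the IRG GTPase Igtp also stood among the leading 4, at 133 ± 17.7 TPM in AhR-KO and 137 ± 46.6 TPM in WT. The mean ± SD ranges of neighbours in these orders overlapped, except for Ifi47 and Bst2 in WT LT-HSC. At the other end Mx1 and Mx2, dynamin-like GTPases that block viruses, had mean levels of 0.9 to 2.9 TPM in all groups. Mx2 is annotated as a polymorphic pseudogene in the reference genome.

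Of the transcription factors, Irf9, a DNA-binding partner of STAT2, averaged 119 ± 12.1 CPM in AhR-KO MPP, 106 ± 13.8 in WT MPP, 130.3 ± 22.6 in AhR-KO LT-HSC and 135 ± 60.99 in WT LT-HSC. Stat2, Irf1 and Irf7, the last a factor that amplifies type I interferon, averaged between 31.6 and 131 CPM across the groups. Isg15, a small ubiquitin-like protein, averaged 8.41 to 12.9 CPM, while Usp18, which removes it and restrains the receptor, Trim25, a ubiquitin ligase of RNA sensing, and Dtx3l, Parp9 and Parp14, which add ubiquitin or ADP-ribose, averaged 23.0 to 129 CPM. The sensors of foreign RNA Ifih1 (MDA5), Ddx58 (RIG-I) and Dhx58 (LGP2), the nucleic acid sensor Zbp1, the kinase Eif2ak2 (PKR) and the RNA editor Adar averaged 9.95 to 129 CPM. The families Oas and Ifit, which sense or bind viral RNA, ranged from 4.87 CPM for Ifit3 in WT MPP to 126 CPM for Oasl2 in AhR-KO LT-HSC. The summed level of the 7 GBP and IRG GTPases, which attack vacuoles that hold microbes, was 559 to 679 CPM in AhR-KO MPP, 477 to 773 CPM in WT MPP, and 735 to 944 CPM in AhR-KO LT-HSC against 755 to 1122 CPM in WT LT-HSC. It was the highest of the 8 role groups in every group of libraries. The GTPases are also the largest list, with 7 members against 3 to 6, so that this order of sums is not one per gene.

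**Figure D1:**
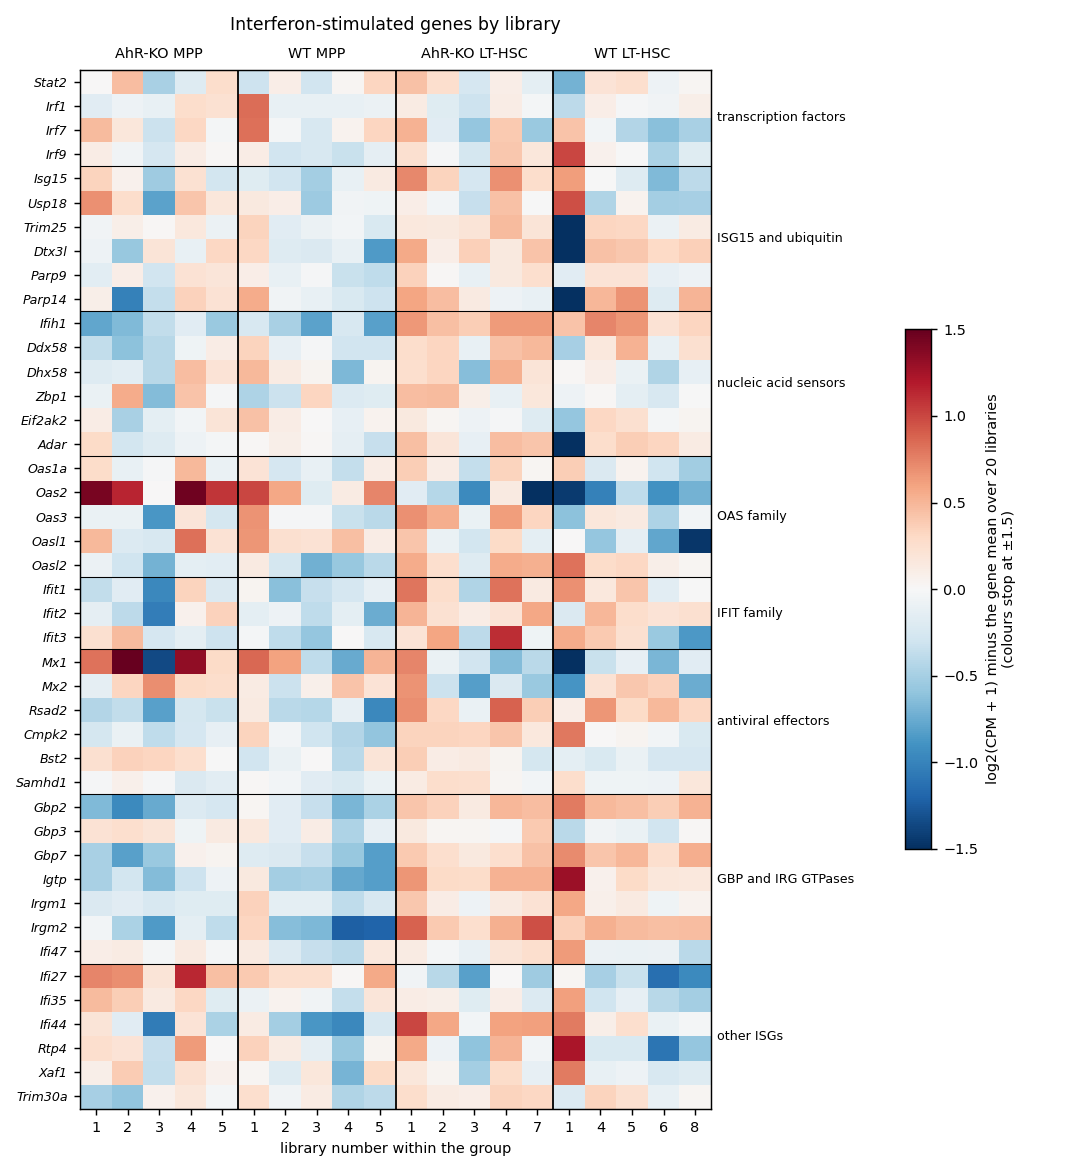
Deviation of log2(CPM + 1) from each gene's mean over the 20 libraries (colour, cut at 1.5 either way) for the 43 members (rows, by role) in each library (columns, by group). Ifih1, Gbp2, Gbp7, Igtp and Irgm2 are lower, and Oas2 and Ifi27 higher, in the MPP columns, and library WT LT-HSC 1 differs from its group in both directions.

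The first comparison asked which members differ between MPP and LT-HSC. In MPP of both genotypes 7 members fell relative to LT-HSC, namely the RNA sensor Ifih1, the GTPases Gbp2, Gbp7, Igtp and Irgm2, the antiviral enzyme Rsad2 (viperin) and Oasl2. Oas2, which makes the messenger that starts RNase L, and Ifi27 rose in both. In AhR-KO, 14 of the 43 members were called at an edgeR adjusted p under 0.05, 2 of them higher and 12 lower in MPP, where 12.5% of the 17416 genes tested were called higher and 10.7% lower. In WT, 10 of 43 were called, 3 higher and 7 lower, against 11% and 11.3% of all genes. The AhR-KO count was 9 without AhR-KO LT-HSC 4 (19.4% of all genes called) and 9 without AhR-KO MPP 3 (20.1%). The median log2 fold change of the members was -0.20 in AhR-KO and -0.13 in WT, and that of all genes 0.01 in WT. Positive were 14 members in AhR-KO (51.1% of all genes) and 16 in WT (51% of all genes). Without WT LT-HSC 1 and AhR-KO LT-HSC 2 and 3, 8 members were positive in AhR-KO and 17 in WT. The median log2 fold change of all genes was then 0.015 in AhR-KO and 0.030 in WT. The 7 members lower in both make up 50% of the AhR-KO calls and 70% of the WT calls, and 28 members were called in neither genotype. The 2 comparisons share no library, though they share 1 estimate of the spread. In sorted bulk RNA, fewer cells of a type and less RNA per cell cannot be told apart.

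Values per library are given in the order of the library numbers, which are 1 to 5 in both MPP groups, 1, 2, 3, 4 and 7 in AhR-KO LT-HSC, and 1, 4, 5, 6 and 8 in WT LT-HSC. Gene positions are GENCODE M21 (GRCm38). Ifih1, at chr2:62595798-62646255, minus strand, had 27.3, 29.8, 36.7, 42.3 and 32.2 CPM in AhR-KO MPP against 75.6, 65.6, 61.7, 74.5 and 74.5 CPM in AhR-KO LT-HSC. In WT it had 40.3, 33.7, 26.98, 40.1 and 26.7 CPM in MPP against 64.6, 79.8, 75.7, 55.7 and 59.9 CPM in LT-HSC. Every MPP library lay below every LT-HSC library. The log2 fold change was -1.06 ± 0.15 (SE) in AhR-KO (edgeR adjusted p = 2.84e-05) and -0.9998 ± 0.15 in WT (edgeR adjusted p = 5.72e-05), that is 0.48 and 0.5 of the LT-HSC level. The related sensor Ddx58 was also lower in AhR-KO MPP (-0.55 ± 0.18, edgeR adjusted p = 0.0338), while WT gave -0.16 ± 0.18 with an edgeR adjusted p of 0.584. Zbp1, Eif2ak2, Adar and Dhx58 were not called by edgeR in either genotype with all libraries. Over 19 settings of the processing, Adar was called in 2 in AhR-KO and in 1 in WT.

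Among the GTPases, 5 of 7 were called lower in AhR-KO MPP and 4 of 7 in WT MPP. Gbp2, at chr3:142620602-142638008, plus strand, had 37.7, 30.4, 35.1, 52.1 and 50.3 CPM in AhR-KO MPP against 80.7, 76.4, 65.7, 85.1 and 82.8 CPM in AhR-KO LT-HSC. Its WT levels were 61.1, 53.4, 47.1, 36.96 and 43.02 CPM in MPP against 104, 84.3, 82.4, 77.7 and 86.4 CPM in LT-HSC. The groups did not overlap in either genotype, and the log2 fold change was -0.93 ± 0.15 in AhR-KO (edgeR adjusted p = 1.68e-04) and -0.85 ± 0.15 in WT (edgeR adjusted p = 4.13e-04). Its neighbour Gbp7, at chr3:142530342-142550149, plus strand, had 95.3, 75.8, 90.6, 140.3 and 138 CPM in AhR-KO MPP against 177, 160.3, 149, 159 and 182 CPM in AhR-KO LT-HSC. Its WT levels were 117, 115, 105, 89.8 and 75.3 CPM in MPP against 221, 179, 190.3, 160.3 and 197 CPM in WT LT-HSC. Its log2 fold changes were -0.61 ± 0.16 in AhR-KO and -0.91 ± 0.16 in WT (edgeR adjusted p = 0.00728 and 2.92e-04), again without overlap. Gbp3, which lies between them on chromosome 3, had 0.03 ± 0.12 in AhR-KO and 0.08 ± 0.12 in WT and was not called. Gbp3 is named here after its values were seen.

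Irgm2, at chr11:58199618-58222782, plus strand, had 63.3, 46.8, 35.9, 58.9 and 49.9 CPM in AhR-KO MPP against 121, 85.9, 77.96, 95.3 and 128 CPM in AhR-KO LT-HSC. In WT it had 81.9, 41.7, 40.5, 27.5 and 27.8 CPM in MPP against 84.1, 95.2, 90.9, 89.6 and 90.7 CPM in LT-HSC, where 1 MPP library came close to the LT-HSC range and no library entered it. The log2 fold change was -0.996 ± 0.24 in AhR-KO and -1.04 ± 0.24 in WT (edgeR adjusted p = 0.00464 and 0.00353). Igtp, at chr11:58199556-58207591, plus strand, overlaps Irgm2 in the annotation, so that reads of the pair may have been split or lost in counting, and the printed stretches show how alike they are. It had 54.4, 63.4, 48.6, 61.9 and 72.8 CPM in AhR-KO MPP against 123, 94.3, 93.4, 111 and 111 CPM in AhR-KO LT-HSC. In WT it had 85.4, 53.5, 54.4, 44.5 and 42.9 CPM in MPP against 188, 80.2, 93.8, 86.4 and 85.5 CPM in LT-HSC, so that the highest MPP library passed 1 LT-HSC library. Its log2 fold change was -0.82 ± 0.22 in AhR-KO and -0.93 ± 0.22 in WT (edgeR adjusted p = 0.0100 and 0.00436). Irgm1, which guards the cell's own membranes from the other IRG proteins, was called in AhR-KO (-0.37 ± 0.13, edgeR adjusted p = 0.0482, against -0.27 ± 0.13 and an adjusted p of 0.157 in WT), and is named after its values were seen.

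**Figure D2:**
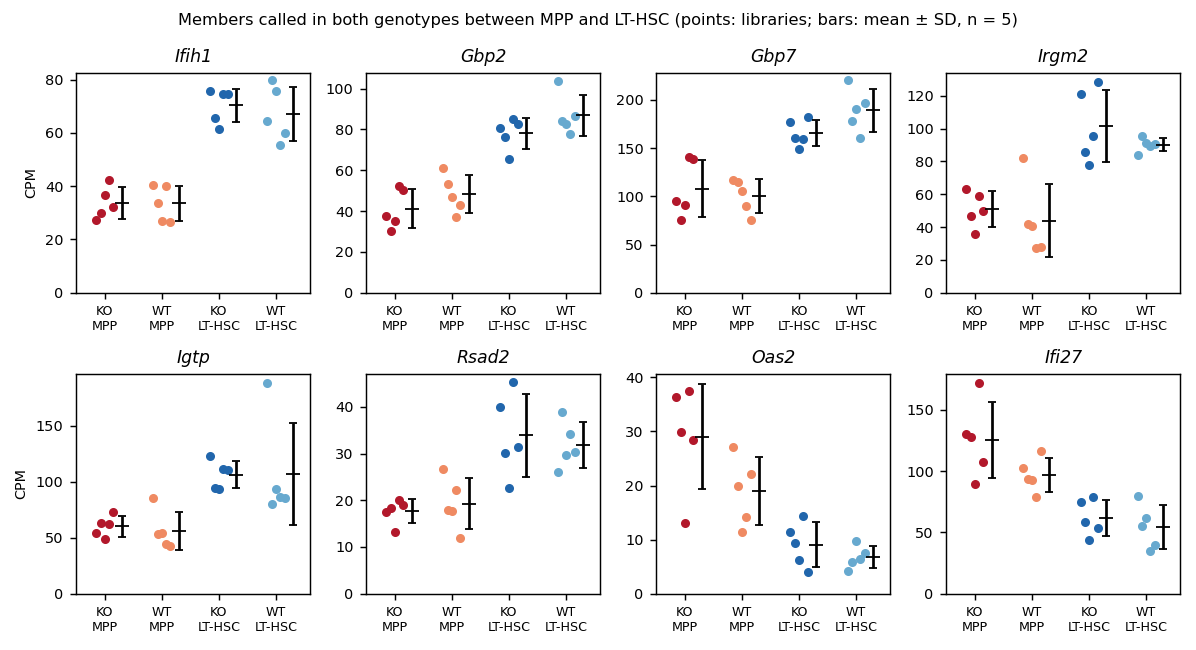
CPM by library (points), with mean ± SD (n = 5), for 8 of the 9 members called in both genotypes, in AhR-KO MPP, WT MPP, AhR-KO LT-HSC and WT LT-HSC from left to right. Ifih1, Gbp2 and Gbp7 have no MPP library inside the LT-HSC range, while Oas2 and Ifi27 run the other way.

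The remaining lower members were Rsad2, Cmpk2, Oasl2, Oas3 and Ifi44. Rsad2, at chr12:26442746-26456452, minus strand, had 17.6, 18.5, 13.3, 20.02 and 19.05 CPM in AhR-KO MPP against 39.95, 30.2, 22.5, 45.3 and 31.5 CPM in AhR-KO LT-HSC. Its WT levels were 26.6, 17.98, 17.7, 22.2 and 11.9 CPM in MPP against 25.97, 38.9, 29.6, 34.3 and 30.3 CPM in WT LT-HSC, where the groups overlapped by 1 library. The log2 fold change was -0.94 ± 0.20 in AhR-KO and -0.72 ± 0.20 in WT (edgeR adjusted p = 0.00196 and 0.0131). Cmpk2, a nucleotide kinase whose gene neighbours Rsad2, was lower in AhR-KO MPP (-0.54 ± 0.18, edgeR adjusted p = 0.0311), and had -0.34 ± 0.18 in WT (edgeR adjusted p = 0.192). Oasl2 averaged 81.3 ± 13.1 CPM in AhR-KO MPP and 126 ± 25.7 in AhR-KO LT-HSC, and 77.3 ± 18.6 in WT MPP and 123 ± 29.3 in WT LT-HSC. Its log2 fold changes were -0.64 ± 0.18 and -0.67 ± 0.18 in AhR-KO and in WT (edgeR adjusted p = 0.0164 and 0.0121). In AhR-KO, Oas3 (-0.65 ± 0.23, edgeR adjusted p = 0.0470) and Ifi44 (-0.79 ± 0.26, edgeR adjusted p = 0.0325) also fell. In WT, Ifi44 had -0.69 ± 0.26 (edgeR adjusted p = 0.0639) and Oas3, named there after its values were seen, 0.17 ± 0.23 (edgeR adjusted p = 0.673).

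Oas2, at chr5:120730333-120749853, minus strand, had 36.5, 29.98, 13.1, 37.5 and 28.3 CPM in AhR-KO MPP against 11.5, 9.40, 6.18, 14.3 and 3.94 CPM in AhR-KO LT-HSC, where only AhR-KO MPP 3 fell within the LT-HSC range. In WT it had 27.1, 19.8, 11.3, 14.3 and 22.2 CPM in MPP against 4.19, 5.94, 9.73, 6.42 and 7.55 CPM in LT-HSC, without overlap. The log2 fold change was 1.68 ± 0.34 in AhR-KO (edgeR adjusted p = 0.00116) and 1.48 ± 0.34 in WT (edgeR adjusted p = 0.00337). Ifi27, at chr12:103434211-103440239, plus strand, had 130.4, 128, 89.8, 172 and 108 CPM in AhR-KO MPP against 75.2, 58.5, 43.9, 78.6 and 53.6 CPM in AhR-KO LT-HSC, a gap without overlap. In WT it had 103, 93.3, 93.1, 79.3 and 116 CPM in MPP against 79.6, 54.9, 61.95, 35.1 and 39.8 CPM in LT-HSC, where the ranges overlapped by 1 library. Its log2 fold changes were 1.02 ± 0.21 in AhR-KO and 0.84 ± 0.21 in WT (edgeR adjusted p = 0.00161 and 0.00757). Oasl1, which in mice dampens translation of Irf7, was higher in WT MPP (0.93 ± 0.27, edgeR adjusted p = 0.0181), and had 0.22 ± 0.27 in AhR-KO (edgeR adjusted p = 0.614), a value looked up after the WT call. Oas2 lies beside Oas3 on chromosome 5, and Oasl1 beside Oasl2 elsewhere on it. In AhR-KO MPP Oas2 rose and Oas3 fell, and in WT MPP Oasl1 rose and Oasl2 fell.

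No member of the transcription factors, of the ISG15 and ubiquitin group or of the IFIT family was called by edgeR with all libraries. Over the 19 settings Ifit2 was called in 4 in AhR-KO and 3 in WT, Ifit1 in 4 in AhR-KO, and Dtx3l in 1 in AhR-KO and 3 in WT. The 3 IFIT genes had log2 fold changes of -0.63 to -0.41 in AhR-KO and -0.52 to -0.33 in WT, with edgeR adjusted p of 0.0804 or more in AhR-KO and 0.0866 or more in WT. Isg15 gave -0.43 ± 0.26 in AhR-KO (edgeR adjusted p = 0.258). Irf1 and Irf9 gave 0.08 ± 0.17 and -0.13 ± 0.20 in AhR-KO and 0.18 ± 0.17 and -0.35 ± 0.20 in WT. Without overlap between the groups were 1 member higher and 8 lower in AhR-KO, against 11.1% and 10.4% of all genes, and 2 higher and 4 lower in WT, against 8.32% and 8.09%. The 9 members called in both genotypes were called in all 19 settings in AhR-KO, and in 18 of 19 in WT, all but the replicate block. Of those called with all libraries in AhR-KO alone, Cmpk2 was called there in 16 of the 19 settings, Ifi44 and Ddx58 in 14, Irgm1 in 11 and Oas3 in 10. In WT, Ifi44 was called in 4 settings, Cmpk2 and Irgm1 in 1 each, and Ddx58 and Oas3 in 0. Oasl1 was called in 16 in WT and 0 in AhR-KO. Without the libraries WT LT-HSC 1 and AhR-KO LT-HSC 2 and 3, 2 members were higher and 15 lower in AhR-KO (15.3% and 13.1% of all genes), and 3 higher and 10 lower in WT (15% and 14%). Beside these differences, 8 markers of plasmacytoid dendritic cells, which carry Irf7 and Bst2, summed to 51.2 to 64.1 CPM in AhR-KO MPP, 56.8 to 100.8 CPM in WT MPP, and 31.8 to 60.9 CPM in AhR-KO LT-HSC against 38.2 to 52.3 CPM in WT LT-HSC. Most of this sum was Lair1, at 25.4 to 54.5 CPM across the libraries, and Ly6d added 10.2 to 16.4 CPM in AhR-KO MPP and 14.0 to 68.3 CPM in WT MPP, against 0 to 7.60 CPM in AhR-KO LT-HSC and 0.0476 to 1.09 CPM in WT LT-HSC. Siglech was at 9.22 CPM or less and Klk1 at 0 in 16 of 20 libraries. Markers of mature cells differed between the populations as well: 8 neutrophil markers summed to 153 to 781 CPM in MPP against 6.18 to 1411 CPM in LT-HSC, 8 monocyte and macrophage markers to 182 to 288 CPM against 29.9 to 342 CPM, and 7 T and NK cell markers to 231 to 414 CPM against 34.4 to 99.5 CPM. The 99.5 CPM of T and NK cell markers stood in WT LT-HSC 1, where only 1 of the 7 genes had a count. Such a sum can rest on 1 gene and does not by itself show the cell type. The part of these cell types in the member differences was not tested.

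**Figure D3:**
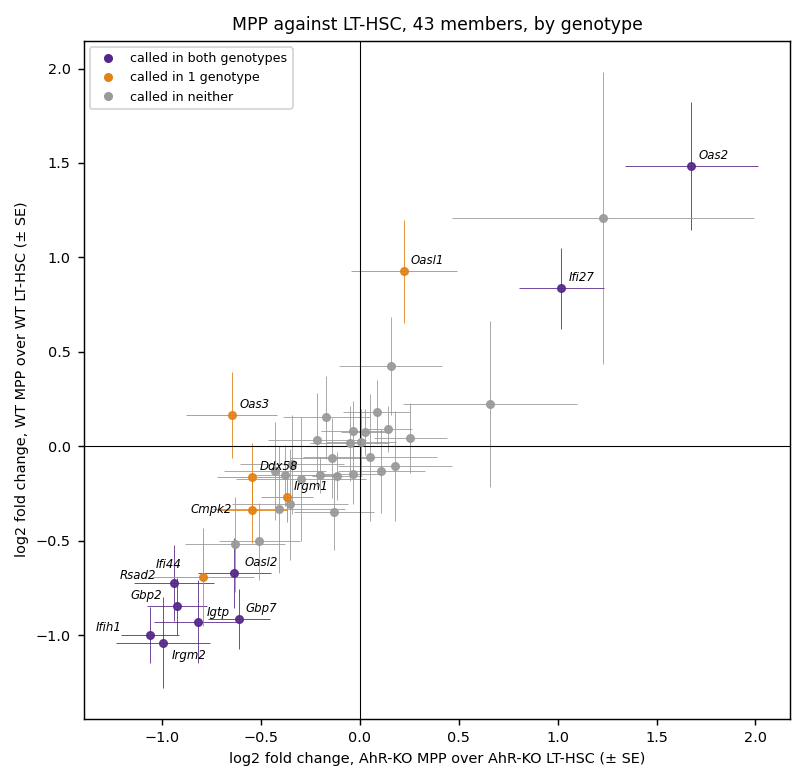
Log2 fold change of MPP over LT-HSC with SE for each of the 43 members, AhR-KO on the horizontal axis and WT on the vertical one. The 9 members called in both genotypes lie at the lower left, 7 of them, and at the upper right, Oas2 and Ifi27.

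The next comparison asked whether members differ between AhR-KO and WT. In LT-HSC, no member was called. The median log2 fold change was 0.15, with 37 of 43 members positive, against 0.00 and 50.1% of the 16065 genes tested, and the range was -0.18 to 0.73. Of all genes, 1 was called (0.00622%), and 1422 had an unadjusted p under 0.05. The members with an unadjusted p under 0.05 numbered 4. DESeq2 called 0 members (147 genes, 0.993%) and limma voom 1. No member separated the groups without overlap, against 2.23% of all genes higher and 1.41% lower, and the lowest edgeR adjusted p was 0.506. Members of 1 pathway move together from library to library, so that their signs are not independent counts.

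Oas3, a large OAS enzyme, had 58.2, 52.8, 33.3, 56.1 and 45.03 CPM in AhR-KO LT-HSC against 23.1, 40.3, 39.4, 25.8 and 34.9 CPM in WT LT-HSC, and AhR-KO LT-HSC 3 lay inside the WT range. Its log2 fold change was 0.60 ± 0.20 (95% interval 0.21 to 0.99, edgeR adjusted p = 0.506). Bst2 had 69.6, 58.1, 59.05, 55.1 and 44.5 CPM in AhR-KO LT-HSC against 48.4, 45.7, 49.8, 44.9 and 44.99 CPM in WT LT-HSC, with AhR-KO LT-HSC 7 below all WT libraries (0.31 ± 0.12, edgeR adjusted p = 0.509). Oasl1 (0.64 ± 0.29), Isg15 (0.50 ± 0.28), Ifit3 (0.39 ± 0.39), Zbp1 (0.37 ± 0.15), Ifi44 (0.37 ± 0.21), Dhx58 (0.30 ± 0.20) and Gbp3 (0.30 ± 0.12) also had positive log2 fold changes and did not pass. Mx1, at 1.961 ± 1.25 CPM in AhR-KO and 1.19 ± 0.756 in WT, had 0.73 ± 0.74. The members with a negative value were 6, of which Gbp7 (-0.18 ± 0.10, edgeR adjusted p = 0.630) was the lowest. Stat2 (0.14 ± 0.20), Irf7 (0.19 ± 0.28), Parp9 (0.14 ± 0.12), Ifit2 (0.14 ± 0.15) and Trim30a (0.17 ± 0.12), a restraint on inflammatory signalling, lay closer to 0.

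Library WT LT-HSC 1 bore on this comparison. Without it the median log2 fold change was 0.24, 36 members were positive (52.5% of all genes), and 1 member, Cmpk2, was called at 0.38 ± 0.08 (edgeR adjusted p = 0.0435). The same setting called 70 of 16338 genes higher (0.428%) and 203 in either direction (1.24%). Cmpk2 had 67.1, 66.8, 66.4, 71.3 and 59.3 CPM in AhR-KO LT-HSC against 92.1, 53.3, 54.7, 51.6 and 45.04 CPM in WT LT-HSC, of which the first WT value is that library. Limma voom with sample quality weights also called Cmpk2 (0.40 ± 0.08, limma adjusted p = 0.0327, with 0.878% of genes called higher and 1.9% in either direction), and with all libraries its edgeR value was 0.17 ± 0.18 (adjusted p = 0.828). It is named after its values were seen, and it lies 9.02 Mb from Ahr on chromosome 12, as Rsad2 lies 9.04 Mb from it. Whether that position bears on the value was not tested. Leaving out AhR-KO LT-HSC 2 and 3 as well gave a median of 0.31, 39 positive members (49.9% of all genes) and no called member (0.195% of all genes). The median was 0.087 without AhR-KO LT-HSC 1, 0.11 without WT LT-HSC 6 and 0.13 without AhR-KO LT-HSC 4.

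**Figure D4:**
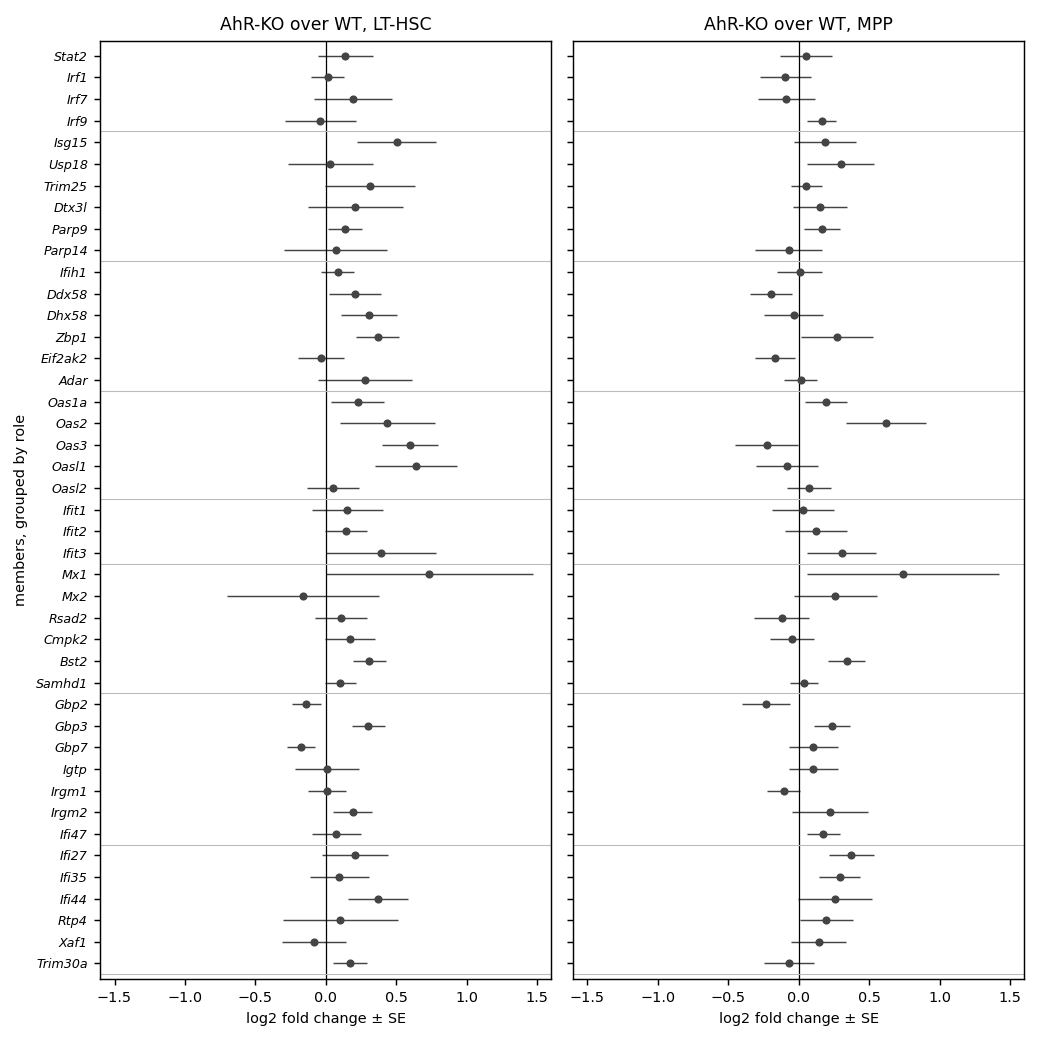
Log2 fold change of AhR-KO over WT with SE for the 43 members, grouped by role, in LT-HSC (left) and in MPP (right). Each row is a member, and 37 lie right of 0 in LT-HSC and 30 in MPP, and none was called in either.

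In MPP, no member was called between AhR-KO and WT either, among 5 calls over the 16077 genes tested (0.0311%). The median log2 fold change of the members was 0.10, 30 of 43 were positive (50.9% of all genes), 3 had an unadjusted p under 0.05 (1065 of all genes), DESeq2 and limma voom called 0, and the lowest edgeR adjusted p was 0.663. No member separated the groups, where 0.61% of all genes did so higher and 0.56% lower. Bst2 had 63.6, 68.2, 66.99, 63.8 and 53.2 CPM in AhR-KO MPP against 43.9, 49.9, 53.6, 40.3 and 61.6 CPM in WT MPP, and 2 WT libraries lay inside the AhR-KO range. Its log2 fold change was 0.34 ± 0.13 (95% interval 0.08 to 0.60, edgeR adjusted p = 0.663). Ifi27, whose CPM per library is given above, had 0.37 ± 0.16 (edgeR adjusted p = 0.707), with overlapping groups. Oas2 had 0.62 ± 0.28, Mx1 0.74 ± 0.68, Ifit3 0.30 ± 0.25, Usp18 0.30 ± 0.24, Ifi35 0.29 ± 0.15, Gbp3 0.24 ± 0.13, Oas1a 0.19 ± 0.15 and Ifi47 0.17 ± 0.12. Irf9, Parp9 and Ifit2 had 0.16 ± 0.10, 0.16 ± 0.13 and 0.12 ± 0.22, and Irf1, Ddx58 and Eif2ak2 had -0.10 ± 0.18, -0.20 ± 0.15 and -0.17 ± 0.14. Without WT MPP 1, the library in which most members stood highest, 38 of 43 were positive (49.8% of all genes) with a median of 0.16, and none was called. The median was 0.17 without AhR-KO MPP 3, 0.058 without AhR-KO MPP 5 and 0.061 without WT MPP 5.

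The difference between the AhR-KO effects in MPP and in LT-HSC was tested in 1 model, and the same test asks whether the MPP and LT-HSC difference changes with genotype. No member and no gene of 17416 was called (0%), though 1125 genes and 1 member, Oas3, had an unadjusted p under 0.05. Positive were 16 of 43 members (51.9% of all genes), with a median of -0.06. With 1 library left out it ran from -0.13 (without AhR-KO LT-HSC 3) to 0.017 (without WT MPP 1), and it was also above 0 without AhR-KO MPP 3 (0.0047) and without AhR-KO LT-HSC 1 (0.0037). It was -0.16, with 8 members positive (50.3% of all genes) and no member called, without WT LT-HSC 1 and AhR-KO LT-HSC 2 and 3. DESeq2 and limma voom also called no member. Oas3 gave -0.81 ± 0.32 (edgeR adjusted p = 0.710). Ddx58 gave -0.38 ± 0.25, Gbp7 0.30 ± 0.22, Isg15 -0.30 ± 0.37, Trim30a -0.22 ± 0.23, Irf9 0.22 ± 0.29, Cmpk2 -0.21 ± 0.25 and Ifit1 -0.11 ± 0.36, each with an edgeR adjusted p of 0.863 or more. The standard errors of the members in this contrast ran from 0.14 to 1.18, so that differences of that size were within the error.

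The signalling genes around the members were counted as a list. The 9 interferon genes looked at held 58 counts in all over the 20 libraries, with at most 11 counts for 1 gene in 1 library (0.548 CPM or less), and none could be tested. Of 11 receptor and kinase genes, 3 were higher in MPP in both genotypes, and 4 in AhR-KO and 3 in WT were lower. Ifnar2, a chain of the type I receptor, averaged 119.8 ± 5.81 CPM in AhR-KO MPP and 87.96 ± 8.83 in AhR-KO LT-HSC, and 125 ± 19.1 in WT MPP and 77.6 ± 5.97 in WT LT-HSC. Its log2 fold change was 0.45 ± 0.10 in AhR-KO and 0.68 ± 0.10 in WT (edgeR adjusted p = 0.00237 and 4.58e-05). Il10rb, a chain of the IL-10 and type III interferon receptors, gave 0.68 ± 0.13 and 0.79 ± 0.13 in AhR-KO and in WT, and Ifngr1 gave 0.60 ± 0.15 in WT, all called higher in MPP. In AhR-KO, Ifngr1 had 174 to 248 CPM in MPP against 113 to 187 CPM in LT-HSC. The kinase Jak1 fell in AhR-KO MPP (-0.46 ± 0.10, edgeR adjusted p = 0.00291). In WT, Jak1 had 363 to 520 CPM in MPP against 566 to 649 CPM in LT-HSC. Ifnar1 averaged 91.7 to 102 CPM and Ifngr2 33.6 to 41.2 CPM across the groups. None of these genes was called between AhR-KO and WT in either population, with Ifngr2 at 0.29 ± 0.14 in MPP and Ifnar2 at 0.20 ± 0.10 in LT-HSC.

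Of 5 other IRF genes, 1 was higher and 1 lower in AhR-KO MPP, and 2 were higher and 1 lower in WT MPP. Irf2, a repressor of interferon genes, fell in MPP of both genotypes (-0.72 ± 0.14 in AhR-KO, -0.76 ± 0.14 in WT, edgeR adjusted p = 6.57e-04 and 4.41e-04), as did Socs1, which blocks JAK kinases and was the 1 called gene of 9 tested restraints on the pathway (-1.01 ± 0.21 and -1.18 ± 0.21). Irf3, a factor that turns on interferon genes, rose in AhR-KO MPP (0.64 ± 0.16). In WT, Irf3 had 60.6 to 93.7 CPM in MPP against 46.98 to 77.3 CPM in LT-HSC, whose highest value is WT LT-HSC 1. Irf8 and Irf4, factors of myeloid and lymphoid cells, rose in WT MPP (2.98 ± 0.64 and 3.66 ± 1.11). In AhR-KO, Irf4 had 0 to 5.66 CPM in MPP against 0.0458 to 2.67 CPM in LT-HSC. Irf8 had 75.6 to 227 CPM in AhR-KO MPP. In LT-HSC Irf8 had 32.8, 120.3, 149.7, 13.1 and 14.4 CPM in AhR-KO against 5.90, 7.75, 14.8, 24 and 35.9 CPM in WT (1.93 ± 0.77, edgeR adjusted p = 0.524). The 2 high values are the libraries with high neutrophil, monocyte and erythroid marker sums. Without these and WT LT-HSC 1 its log2 fold change was -0.031. Of 10 tested genes of upstream sensing, 3 were higher in MPP of both genotypes and 1 was lower in AhR-KO MPP. The DNA sensing genes Tmem173 (STING) and Mb21d1 (cGAS) and the endosomal RNA receptor Tlr7 rose in MPP of both genotypes, by 0.71 ± 0.14, 0.86 ± 0.14 and 3.10 ± 0.89 in AhR-KO and 0.93 ± 0.14, 0.48 ± 0.14 and 5.07 ± 0.99 in WT. A further list of 69 interferon-responsive genes, 68 of them tested, had 8 higher and 15 lower in AhR-KO MPP and 13 higher and 13 lower in WT MPP. These counts of the lists stand beside 12.5% of all genes called higher and 10.7% lower in AhR-KO MPP, and 11% and 11.3% in WT MPP. Among the leading genes of that list of 69, Slfn2, which keeps T cells quiescent in mice, fell in AhR-KO MPP (-1.98 ± 0.20). Gbp8 fell there too (-1.97 ± 0.30). Apobec3, a restrictor of retroviruses, rose in both (0.77 ± 0.08 in AhR-KO, 0.65 ± 0.08 in WT). Ifi205 and Ifi211 rose in WT MPP (1.66 ± 0.20 and 1.58 ± 0.20). A gene named in 1 genotype led the list there, and the other genotype can move alike. In WT, Slfn2 had 15.2 to 19.7 CPM in MPP against 35.5 to 55.6 CPM in LT-HSC. Gbp8 there had 6.48 to 15.2 CPM against 12.8 to 26.4 CPM. In AhR-KO, Ifi205 had 9.86 to 16.6 CPM in MPP against 5.94 to 9.25 CPM in LT-HSC. Ifi211 there had 11.2 to 17.0 CPM against 7.15 to 13.8 CPM. Ly6a, the surface marker Sca-1 and an interferon-responsive gene, had 109, 108, 71.1, 124 and 92.5 CPM in AhR-KO LT-HSC against 67.4, 75.7, 73.98, 53.8 and 64.3 CPM in WT LT-HSC, with overlap at AhR-KO LT-HSC 3 (0.60 ± 0.15, edgeR adjusted p = 0.409). In MPP, the gene with the smallest p of each list had -1.81 ± 0.90 for Irf4, -1.52 ± 0.58 for the RNA receptor Tlr3, -0.15 ± 0.11 for the phosphatase Ptpn6 and 0.22 ± 0.08 for Sp110, and in LT-HSC -0.26 ± 0.15 for Mb21d1 and -0.35 ± 0.15 for Pias3, which restrains STAT3, none of them called between AhR-KO and WT. Tiparp, a target of AHR that restrains it, averaged 33.7 ± 4.39 CPM in AhR-KO MPP and 31.9 ± 2.56 in WT MPP, and 25.5 ± 2.21 in AhR-KO LT-HSC and 33.3 ± 8.94 in WT LT-HSC. The population comparisons and the genotype comparisons share libraries, so that values of 1 gene across them are not independent.

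Within a group, single libraries were highest or lowest for many members at once. The share of all genes that stood highest or lowest in each library was not counted, so that these counts do not show a trait of the members. In AhR-KO MPP, library 4 was highest for 19 members and library 3 lowest for 25. In WT MPP, library 1 was highest for 31 of 43 members and lowest for 2. In AhR-KO LT-HSC, library 1 was highest for 20 and lowest for none, and library 3 was lowest for 31. That library 3 also held the high neutrophil, erythroid and stromal marker sums given above. In WT LT-HSC, library 1 was highest for 21 and lowest for 18, and library 6 was lowest for 17 and highest for none. In that WT LT-HSC 1 library, the members that stood highest had a median exon length of 2656 bases and those that stood lowest 4662 bases. Its Trim25 was 20.9 CPM, its Dtx3l 29.4 CPM and its Adar 29.3 CPM, against 70.4 CPM or more, 127 or more and 115 or more in the other WT LT-HSC libraries. Whether transcript length bears on that pattern was not tested. These library-wide shifts are part of the spread against which the genotype comparison is judged.

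**Figure D5:**
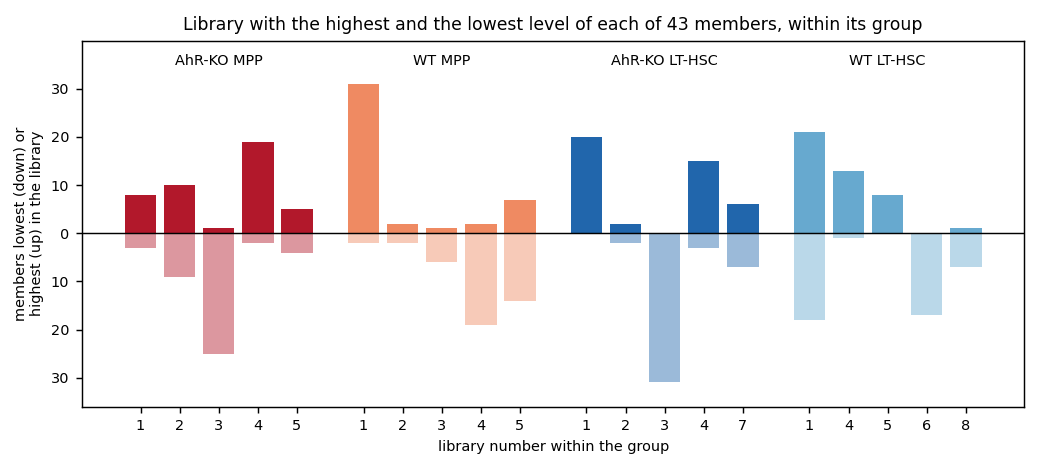
Number of the 43 members for which each library is the highest (upward) or the lowest (downward) of its group of 5. WT MPP 1 is highest for 31 members, AhR-KO LT-HSC 3 is lowest for 31 members and WT LT-HSC 1 is highest for 21 and lowest for 18.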

How the data were processed

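RNA was measured by sequencing in 20 libraries. For each population the authors deposited a table of counts by gene symbol, not normalized. The submitters' processing notes name the build GRCm38.p5, featureCounts from Subread 1.5.0p3, DESeq2 1.12.4, STAR 2.5.2b and Trimmomatic 0.36, and the sources used here give no order, settings or annotation for them. Per the labels, libraries came from poly(A) RNA with a TruSeq kit that keeps no strand, so that Igtp and Irgm2, Dtx3l and Parp9, and Irf1, Irf7, Irf9, Adar, Ifi47 and Rtp4 with their overlapping genes are uncertain.

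The tables were joined. edgeR 4.0.16 in R 4.3.3 (filterByExpr, TMM, robust quasi-likelihood test, two-sided, Benjamini-Hochberg over all genes tested) called genes below an adjusted p of 0.05. Genotypes were compared on the 10 libraries of a population, and populations, like the difference of effects, in 1 fit of 20 libraries. Levels are CPM on TMM-scaled totals, and TPM used GENCODE M21 exon lengths. SEs are the log2 fold change over the square root of F. Library totals ran from 13712668 to 21622653 counts. The biological coefficient of variation was 32.5% in LT-HSC, 29.2% in MPP and 33.8% over all libraries, so that the spread between replicates, not depth, limits most values. Pairs of libraries of a group differed by at least 12.9 times the variance of counting noise, so none was counted as a repeat. Code was tested on simulated counts that had less spread than these libraries and no outlying library. That test does not show how well changes are found in these data.

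The members and lists were chosen with earlier results of these data known. Named with a fold change are, per role, the 2 members with the smallest p in each genotype comparison, 3 in each population comparison and 1 in the difference of effects, and up to 3 called genes of each other list, or its 1 gene with the smallest p. The level of 1 gene of the receptor and kinase list is not reported here. Alternatives were DESeq2 size factors, no filter, 5 CPM in 5 libraries, DESeq2 1.42.0, limma 3.58.1 voom with quality weights, all libraries in 1 fit or only the 10 compared, leaving out each library or the 3 libraries that stood apart, and the replicate number as a block.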

Additional observations from a re-analysis of the deposited data

Results flagged for a closer look

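In 18 of the 172 combinations of member and group, the highest or lowest of the 5 libraries stood further from the rest than Dixon's 95% limit allows, where chance at 1 in 20 gives about 8.6. The share of all genes flagged by this rule was not counted. Library WT LT-HSC 1 accounts for 11 of the 18. Over all genes, pairs with that library differed by 250 to 270 times the variance of counting noise. The other WT LT-HSC pairs differed by 12.9 to 18.1 times that variance. Its outliers are therefore not particular to the members. WT LT-HSC 1 was high for Irf9 at 241 CPM (others 85.98 to 125), Usp18 at 47.9 CPM (others 16.6 to 25.02), Cmpk2 at 92.1 CPM (others 45.04 to 54.7), Igtp at 188 CPM (others 80.2 to 93.8), Irgm1 at 206 CPM (others 131 to 151), Ifi47 at 282 CPM (others 137 to 169.9), Ifi35 at 58.7 CPM (others 26.3 to 34.6), Rtp4 at 138 CPM (others 26.7 to 49.5) and Xaf1 at 50.6 CPM (others 24.3 to 27.3), and low for Dtx3l at 29.4 CPM (others 127 to 139) and Adar at 29.3 CPM (others 115 to 136).

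Library WT MPP 1 accounts for 6, all high: Irf1 at 213 CPM (others 109.8 to 112), Parp14 at 58.5 CPM (others 31.7 to 38.1), Oas3 at 57.7 CPM (others 26.9 to 35.5), Igtp at 85.4 CPM (others 42.9 to 54.4), Irgm1 at 174 CPM (others 105 to 124) and Irgm2 at 81.9 CPM (others 27.5 to 41.7). The remaining one is library AhR-KO LT-HSC 4, with Trim25 at 105 CPM (others 82.8 to 85.8).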

How the results depend on the processing

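Over the 2394 values of members and other named genes under an alternative, 2296 kept their direction and their side of the threshold, 52 no longer passed it, 24 newly passed it and 22 changed sign. Between AhR-KO and WT in LT-HSC the count of called members was 0 with all libraries, 1 (Cmpk2) with limma voom, and 0 to 1 with 1 library left out, the 1 again without WT LT-HSC 1. Between AhR-KO MPP and AhR-KO LT-HSC it was 14, and 9 to 15 with 1 library left out, with 9 without AhR-KO LT-HSC 4 and 9 without AhR-KO MPP 3. In WT it was 10, and 9 to 12.

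The labels do not say what a shared replicate number marks, and it was not taken as a pairing since not every pair of same-numbered libraries correlated above 0.1. Deviations from the group means of same-numbered libraries correlated at -0.075 to 0.0659 in LT-HSC, -0.291 to 0.0091 in MPP, 0.0281 to 0.253 in AhR-KO and -0.13 to 0.0458 in WT. In AhR-KO 5 of 8 such libraries correlated best with their own number, and none did in the other comparisons. With the replicate block, which keeps only shared numbers, the population comparison called 18 members in AhR-KO and 0 in WT, against 14 and 10, and the other comparisons 0. It called 13.2% of all genes higher and 15.5% lower in AhR-KO, and 0.481% and 0.216% in WT. The block also changed the sign of Mb21d1 (0.073) in AhR-KO against WT LT-HSC, and of Dtx3l (0.046), Parp14 (0.10) and Dhx58 (-0.035) in WT MPP against LT-HSC.

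Limma voom changed the sign of Irf1 in AhR-KO against WT MPP (0.053) and in WT MPP against LT-HSC (-0.069). Without WT LT-HSC 1 and AhR-KO LT-HSC 2 and 3, Irf8 in AhR-KO against WT LT-HSC was -0.031, Irf7 and Irf1 in AhR-KO MPP against LT-HSC were -0.048 and -0.036, and the difference of effects was -0.25 for Irf9 and 0.29 for Irf8. With 1 library left out, the log2 fold change ran from -0.16 to 0.14 for Irf1 and from -0.037 to 0.28 for Ifit2 in AhR-KO against WT MPP, from -0.087 to 0.24 for Irf1 and from -0.000334 to 0.28 for Dhx58 in WT MPP against LT-HSC, from -0.013 to 0.13 for Irf1 in AhR-KO MPP against LT-HSC, and in the difference of effects from -0.095 to 0.33 for Irf9 and from -0.32 to 0.025 for Ifit1. The cause was not tested. Mx1 and Mx2 had the fewest reads of the members, and Mx1 ran from 0.204 to 9.01 CPM within AhR-KO MPP.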
